A study of Mus musculus with 16 samples.

Results

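A transcription factor of male germ cells, A-MYB, was expressed in mouse embryonic stem (ES) cells that were not given doxycycline, and their RNA was compared with that of the same cells without A-MYB. The comparison takes the 4 RNA-seq libraries whose titles say that no doxycycline was given, 2 with A-MYB (called A-MYB cells) and 2 without (control cells), out of 8 ES cell libraries and 16 libraries in all. Every group was made from the J1 line (129S4/SvJae background, passage 36, day 3) and carries the same transgenes, dCas9-VPR, a nuclease-dead Cas9 fused to transcriptional activation domains, and a guide RNA with DsRed that is aimed at RLTR10B2, long terminal repeats that derive from endogenous retroviruses. The control cells carry these transgenes too. The cells grew in serum with LIF and 2 kinase inhibitors, PD0325901 at 1 µM and CHIR99021 at 3 µM, on gelatin and without feeder cells. The labels say that A-MYB expression and doxycycline (Dox, 1 µg/ml, in the other 4 libraries only) were started on days 1 and 2. How A-MYB was introduced and how many clones were used are not given in the sources used here. The titles of both A-MYB libraries share the same Dox-free part, and whether it names a single culture is not clear. Nothing says that the libraries of a group came from separate cultures, so p-values measure the spread between these libraries, which may be technical.

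A-MYB, encoded by Mybl1, belongs to the MYB family of transcription factors, which bind DNA at sites with the core AACNG. In mouse spermatocytes it switches on genes of the pachytene stage of meiosis and of the piRNA pathway, the small RNAs that protect the germ line from transposons. In ES cells most germ-cell genes are held silent by DNA methylation and by repressor complexes such as PRC1.6, which includes MGA, MAX and E2F6. Krüppel-type zinc finger genes, many of which encode KRAB repressors of endogenous retroviruses, lie in clusters of near-identical copies in the mouse genome.

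Mybl1 (chromosome 1, 9667407 to 9700439 in GRCm38.p6, gene ID 17864) had 8.38 and 6.92 CPM in the control libraries and 22.03 and 17.8 CPM in the A-MYB libraries. CPM is the count of a gene relative to the total gene count of its library, after scaling between libraries. Both A-MYB libraries lay above both controls, with a log2 fold change of 1.38 (SE 0.14, edgeR adjusted p = 1.24e-07, n = 2 against 2), and Mybl1 was called with each of the 4 libraries left out in turn. The counts do not separate the ES cells' own gene from an added copy. The paralogues Mybl2 (log2 fold change -0.09, edgeR adjusted p = 0.228) and Myb (0.02, adjusted p = 0.951) did not pass the test.

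The gene counts of the control libraries summed to 30588744 and 26995317, and those of the A-MYB libraries to 28254102 and 31168253. Markers of ES cells stood at similar summed levels, 8366 and 8054 CPM in control and 7656 and 7883 CPM in A-MYB cells, and 3 of 10 rose and 3 fell. Markers of fibroblast feeders summed to 1198 and 1289 against 1082 and 1015 CPM, with Dcn at 0, and those of primitive endoderm and trophoblast stayed between 5.44 and 7.498 CPM in all 4 libraries, with Tpbpa at 0. Mesoderm markers summed to 28.8 and 27.5 against 24.4 and 23.01 CPM (1 of 5 fell), and neuroectoderm markers to 105 and 107 against 128 and 121 CPM (2 of 4 rose), and the part of other cell types in the results was not tested. Reads assigned to no gene made up 7.28% and 7.34% of the reads of the control libraries and 8.34% and 7.54% of the A-MYB libraries, and their part in the results was not tested.

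The response was broad and mostly small. Of the 14664 genes tested, 34.7% changed at an adjusted p under 0.05: 2856 (19.5%) rose and 2230 (15.2%) fell in A-MYB cells in edgeR's quasi-likelihood test, with a median log2 fold change of 0.45 among those that rose and -0.35 among those that fell. A change of at least 2-fold was seen in 345 genes that rose (2.35%) and in 106 that fell (0.723%). The calls depend on single libraries in many genes: 1744 rose without control replicate 1 and 1718 without A-MYB replicate 1, and 1482 fell without the latter. The rises of at least 2-fold numbered 220 and 227 in these fits. In each of the 4 fits that left out a library, 1347 genes rose (9.19%) and 1041 fell (7.1%), and these are called stable below. With 2 libraries a group, non-overlap alone says little, since 66.1% of all tested genes did not overlap.

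**Figure D1:**
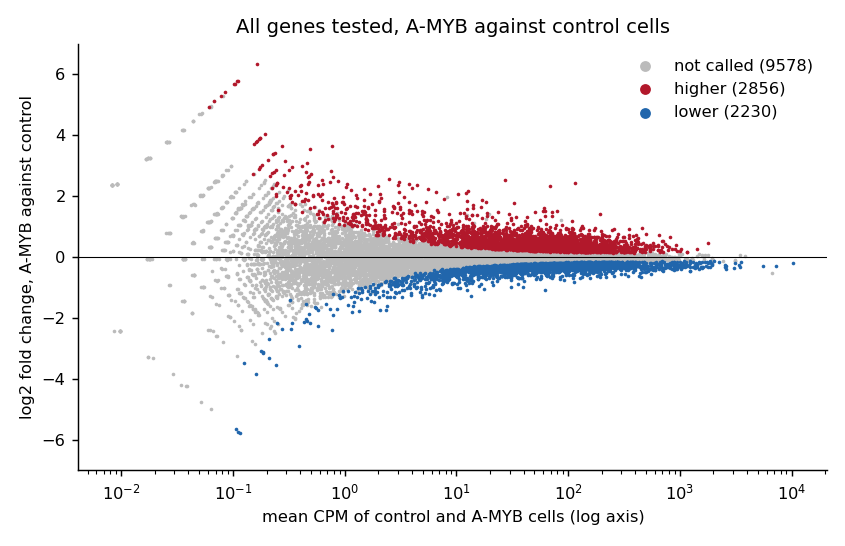
Each point is 1 of the 14664 tested genes, with its mean CPM in control and A-MYB cells on a log axis (horizontal) and its log2 fold change, A-MYB against control (vertical). The 2856 genes that rose and the 2230 that fell lie close to 0 at high levels, and the larger changes belong mostly to genes of low level.

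Genes of meiosis and of the piRNA pathway were among those that rose. Of 28 tested genes of meiotic prophase 10 rose (35.7%, against 19.5% of all tested genes) and 0 fell (median log2 fold change 0.46, against -0.005 over all tested genes), and of 19 tested piRNA pathway genes 8 rose (42.1%) and 0 fell (median 0.34). Of the former 8 were stable and of the latter 4, and the piRNA count dropped to 4 without control replicate 1 and to 5 without A-MYB replicate 2. Of 23 tested genes of spermatogonia and meiotic entry 6 rose (26.1%) and 2 fell (median 0.16), nearer the shares over all genes. Genes of later stages were mostly too low to test: 6 of the listed spermatid genes were tested, of which 0 rose and 1 fell (Pcsk4, a protease of sperm, log2 fold change -1.43), and of 11 tested genes of testis somatic cells 0 rose and 1 fell. The summed level of the meiotic list was 421 and 404 CPM in control and 524 and 494 CPM in A-MYB cells. In bulk RNA, a few cells with much RNA of a gene and many cells with little cannot be told apart.

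The 250 bases before the transcription start are shown for 4 of these germ-cell genes and for 3 zinc finger genes described further on, since they let the letters near the start be read beside the changes in RNA. They are RefSeq sequences of GRCm38.p6 (mm10), read 5′ to 3′ towards the gene, and capitals mark each match to the MYB core AACNG on either strand (CNGTT on the other) and each match to the E-box CACGTG, the palindrome bound by MAX and its partners, among them MGA and MYC. Nxf2 is taken from chrX:134964755-134965004 (minus strand), Taf7l from chrX:134476491-134476740 (minus strand), Hormad1 from chr3:95559427-95559676 (plus strand) and Tdrd9 from chr12:111971309-111971558 (plus strand). Zfp758 is taken from chr17:22361213-22361462 (plus strand), Zfp943 from chr17:21962309-21962558 (plus strand) and Zfp947 from chr17:22165978-22166227 (minus strand).
Nxf2: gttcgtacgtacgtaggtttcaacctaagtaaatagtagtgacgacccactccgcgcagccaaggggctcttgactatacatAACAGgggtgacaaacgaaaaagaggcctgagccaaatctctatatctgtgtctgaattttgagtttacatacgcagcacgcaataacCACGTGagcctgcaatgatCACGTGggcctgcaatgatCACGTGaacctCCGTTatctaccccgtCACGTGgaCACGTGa
Taf7l: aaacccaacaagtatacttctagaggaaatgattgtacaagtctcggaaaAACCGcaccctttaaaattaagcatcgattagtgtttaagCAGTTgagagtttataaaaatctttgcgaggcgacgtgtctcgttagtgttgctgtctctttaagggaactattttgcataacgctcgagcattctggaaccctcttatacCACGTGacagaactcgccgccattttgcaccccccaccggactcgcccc
Hormad1: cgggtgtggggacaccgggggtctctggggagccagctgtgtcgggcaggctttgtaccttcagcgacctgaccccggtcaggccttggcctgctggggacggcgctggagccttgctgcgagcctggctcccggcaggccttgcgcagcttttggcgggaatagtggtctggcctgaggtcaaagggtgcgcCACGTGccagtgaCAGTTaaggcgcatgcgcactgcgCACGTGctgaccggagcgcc
Tdrd9: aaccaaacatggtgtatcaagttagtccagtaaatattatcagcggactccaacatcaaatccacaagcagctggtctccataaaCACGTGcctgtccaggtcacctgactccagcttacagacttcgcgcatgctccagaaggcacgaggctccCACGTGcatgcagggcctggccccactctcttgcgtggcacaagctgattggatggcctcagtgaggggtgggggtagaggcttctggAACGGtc
Zfp758: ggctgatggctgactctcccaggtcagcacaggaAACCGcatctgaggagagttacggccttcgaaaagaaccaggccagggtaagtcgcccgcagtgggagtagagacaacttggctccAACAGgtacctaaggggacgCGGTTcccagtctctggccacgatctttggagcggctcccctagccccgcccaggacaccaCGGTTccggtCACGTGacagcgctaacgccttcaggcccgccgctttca
Zfp943: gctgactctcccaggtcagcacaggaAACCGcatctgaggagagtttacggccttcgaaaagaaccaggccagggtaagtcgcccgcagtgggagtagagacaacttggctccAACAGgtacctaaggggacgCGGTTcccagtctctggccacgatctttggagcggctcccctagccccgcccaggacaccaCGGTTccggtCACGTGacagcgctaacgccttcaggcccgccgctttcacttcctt
Zfp947: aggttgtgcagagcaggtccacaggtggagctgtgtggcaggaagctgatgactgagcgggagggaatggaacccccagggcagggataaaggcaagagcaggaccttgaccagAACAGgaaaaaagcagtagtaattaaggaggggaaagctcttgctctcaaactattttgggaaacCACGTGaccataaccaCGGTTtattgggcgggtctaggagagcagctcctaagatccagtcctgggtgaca

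The MYB core was about as common before genes that rose as before others. In windows from 250 bases before to 50 after the start, AACNG was found in 77.5% of the 11535 tested genes with a RefSeq promoter, in 76.8% of those that rose, in 82.0% of those that rose by at least 2-fold, in 77.2% of those that fell and in 80.4% of all 27025 promoters in the table. The E-box, counted after it was seen in the sequences above, was found in 10.2% of the tested genes' windows, in 13.6% of those that rose and in 19.9% of those that rose by at least 2-fold, against 9.68% of those that fell and 3.797% of those that fell by at least 2-fold. Among the 3 germ-cell lists above, 12 of 18 windows of genes that rose held it and 4 of 42 windows of the other tested members. Without the 4 printed genes, which prompted the count, 8 of 14 windows of genes that rose held it. The CpG count per window had a median of 20 over all tested genes and of 23 over those that rose. It was 13 over those that rose by at least 2-fold and 11 over those that fell by at least 2-fold. A match describes the letters only and says nothing of what binds there.

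Nxf2, an RNA export factor of male germ cells on the X chromosome, stood at 1.00 and 0.894 CPM in the control libraries and at 5.04 and 5.41 CPM in the A-MYB libraries. The groups were far apart (edgeR log2 fold change 2.45, SE 0.21, adjusted p = 8.24e-09), and no other stable gene whose log2 CPM averages 1 or more rose as much. Its promoter above holds 5 E-boxes and 2 MYB cores.

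Among the genes of meiotic chromosomes, Hormad1, a protein of the chromosome axis, went from 11.5 and 9.67 CPM to 29.4 and 24.7 CPM (edgeR log2 fold change 1.35, SE 0.15, adjusted p = 2.01e-06). Stag3, a cohesin subunit of meiosis, went from 48.1 and 43.4 to 80.9 and 71.0 CPM (log2 fold change 0.73, SE 0.07, adjusted p = 1.07e-07). In both genes every A-MYB library exceeded every control library. Taf7l, a testis form of a subunit of the general transcription factor TFIID, went from 2.53 and 2.64 to 7.20 and 7.55 CPM (log2 fold change 1.51, SE 0.17, adjusted p = 4.22e-07). Tex15, which is needed for meiotic recombination and for piRNA-guided silencing, went from 13.3 and 10.6 to 33.2 and 27.1 CPM (log2 fold change 1.32, SE 0.13, adjusted p = 4.38e-07). The other members that rose were Sycp1 and Sycp3, which build the synaptonemal complex, Tex11, Tex101, Brdt, a bromodomain protein of the testis, and Ythdc2, an RNA helicase needed for meiosis. Their log2 fold changes ran from 0.61 in Ythdc2 to 2.42 in Sycp1. Members that did not pass include Dmc1, the recombinase of meiosis (log2 fold change 0.09, edgeR adjusted p = 0.828), Syce1 (0.22, adjusted p = 0.0746) and Smc1b (0.30, adjusted p = 0.0550).

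In the piRNA pathway, Rnf17, a Tudor domain protein of germ cells, went from 92.7 and 95.4 to 168 and 145 CPM (edgeR log2 fold change 0.73, SE 0.08, adjusted p = 2.66e-06). Tdrd9, a helicase that acts with the nuclear piRNA machinery, went from 0.519 and 1.28 to 3.69 and 2.67 CPM (log2 fold change 1.84, SE 0.30, adjusted p = 8.09e-05). Piwil2, a PIWI protein that binds piRNAs, went from 12.2 and 11.3 to 17.02 and 18.8 CPM (log2 fold change 0.61, adjusted p = 7.84e-05), and Ddx4, the germ-cell helicase VASA, from 12.8 and 13.6 to 17.5 and 19.102 CPM (0.47, adjusted p = 0.00117). These 4 genes did not overlap between the groups and were stable. Tdrd1, Mael, Fkbp6 and Tdrd3 also rose, with log2 fold changes from 0.29 to 1.62. Piwil1, the PIWI protein of pachytene spermatocytes, did not pass (log2 fold change 0.47, edgeR adjusted p = 0.397), nor did Mov10l1 (0.12, adjusted p = 0.539).

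Of the genes of early germ cells, Dazl, an RNA-binding protein needed for germ-cell development, went from 28.1 and 27.3 to 60.9 and 54.3 CPM (edgeR log2 fold change 1.06, SE 0.09, adjusted p = 2.34e-08). Dppa3, also known as Stella, went from 17.004 and 17.2 to 24.4 and 25.4 CPM (0.54, adjusted p = 9.91e-05). Usp26, an X-linked gene of the testis, stood at only 0.139 and 0.233 CPM in control and at 1.02 and 1.64 CPM in A-MYB cells (2.83, SE 0.62, adjusted p = 0.000886). Stra8, which starts meiosis, did not pass (log2 fold change -0.36, adjusted p = 0.236), and Kit and Uchl1 fell, by 0.25 and 0.38 on the log2 scale.

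The repressors of germ-cell genes did not move as a block. Of 14 tested PRC1.6 genes 6 rose and 1 fell (42.9% and 7.14%, beside 19.5% and 15.2% of all tested genes). The median log2 fold change was 0.11, and fewer rose without control replicate 1 or without A-MYB replicate 1. Mga went from 296 and 313 to 537 and 466 CPM (edgeR log2 fold change 0.72, SE 0.07, adjusted p = 2.59e-07) and E2f6 from 17.3 and 17.9 to 27.5 and 28.1 CPM (0.66, adjusted p = 8.84e-06). Rnf2, a ubiquitin ligase of Polycomb complexes, rose by 0.46, and Wdr5 fell by 0.27. Max itself did not pass (log2 fold change -0.005, adjusted p = 0.970). Of 23 tested genes of endogenous retrovirus silencing 10 rose and 3 fell (median 0.05): Atrx, a chromatin remodeller (log2 fold change 0.63), and Suv39h2, a histone H3 lysine 9 methyltransferase (0.49), rose, and Ehmt2, the methyltransferase G9a, fell by 0.41.

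Many zinc finger genes rose. Of the 345 tested genes whose symbol starts with Zfp, 159 rose and 10 fell (46.1% and 2.90%, against 19.5% and 15.2% of all tested genes), with a median log2 fold change of 0.32, and 37 rose by at least 2-fold. Without A-MYB replicate 1, 3 fell. Their summed level was 11233 and 11472 CPM in control cells and 13880 and 13512 CPM in A-MYB cells. The symbol family was singled out after the values were seen, and the smaller families Alg (7 of 12) and Tex (8 of 17) had higher shares of rises. Many of these genes are near-identical copies, and the sources used here do not say how reads that match several copies were counted, so the change of a single copy is uncertain.

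Some of the genes with large rises lay side by side. Stretches of neighbouring tested genes were defined by at least 4 rises of 2-fold in a window of 10 genes, a rule that uses the rises themselves, so their counts are a description. Of the 37 Zfp genes that rose by at least 2-fold, 18 lay inside the 4 stretches found and 19 outside. On chromosome 17 (21008941 to 22867309), 20 of 22 tested genes rose and 0 fell, with a median log2 fold change of 1.44, and 18 were stable. The summed level of these genes was 162 and 174 CPM in control and 373 and 324 CPM in A-MYB cells. On chromosome 4 (144555000 to 147812229), 15 of 22 rose and 1 fell (median 1.44), and the sums were 404 and 438 against 1230 and 1063 CPM. The count on chromosome 4 dropped to 7 without control replicate 1, to 8 without control replicate 2 and to 7 without A-MYB replicate 1. On chromosome 13 (61771580 to 62785808), 6 of 7 rose and 0 fell (median 1.36), with sums of 38.5 and 38.8 against 127 and 112 CPM, and 4 rose in each fit that left out a library. A looser stretch on the X chromosome (106206874 to 134086822) held 12 rises and 0 falls among 23 genes. Tested genes with a Zfp symbol, here or in RefSeq, numbered 20 of 22 on chromosome 17 and 11 of 22 on chromosome 4. On chromosome 13 they numbered 3 of 7, and on the X only 1 of 23. Outside the 4 stretches, 136 of 322 Zfp genes rose and 10 fell, with a median log2 fold change of 0.25.

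Single genes of these stretches show the size of the change. On chromosome 17, Zfp758 went from 1.59 and 2.37 to 11.4 and 7.15 CPM (edgeR log2 fold change 2.23, SE 0.28, adjusted p = 8.68e-06), and Zfp943 from 1.90 and 1.44 to 6.57 and 5.14 CPM (1.80, adjusted p = 5.86e-06). The printed promoters of these genes are 93.8% identical over 258 aligned columns and hold 4 MYB cores and 1 E-box each. Zfp947, at 1.18 and 1.09 against 4.97 and 5.14 CPM (2.15, SE 0.40, adjusted p = 0.000656), has a promoter with 2 MYB cores and 1 E-box. It is 53.02% identical to that of Zfp758, about as much as the promoter of the germ-cell gene Hormad1 (53.3%). Of the 20 promoters found for the stretch on chromosome 17, 19 held the MYB core, with a median of 3.5 matches against 1 over all tested genes, and 8 held the E-box. The other stretches differed: on chromosome 4 the core was found in 13 of 16 promoters, with a median of 1 match, and the E-box in 1, on chromosome 13 the core in 5 of 5 and the E-box in 0, and on the X the core in 17 of 21 and the E-box in 3. On chromosome 4, 2610305D13Rik, which RefSeq lists as Zfp979, went from 37.1 and 34.0 to 205 and 181 CPM (log2 fold change 2.44, SE 0.33, adjusted p = 0.00667). Its adjusted p reached 0.0499 with 1 library left out.

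**Figure D2:**
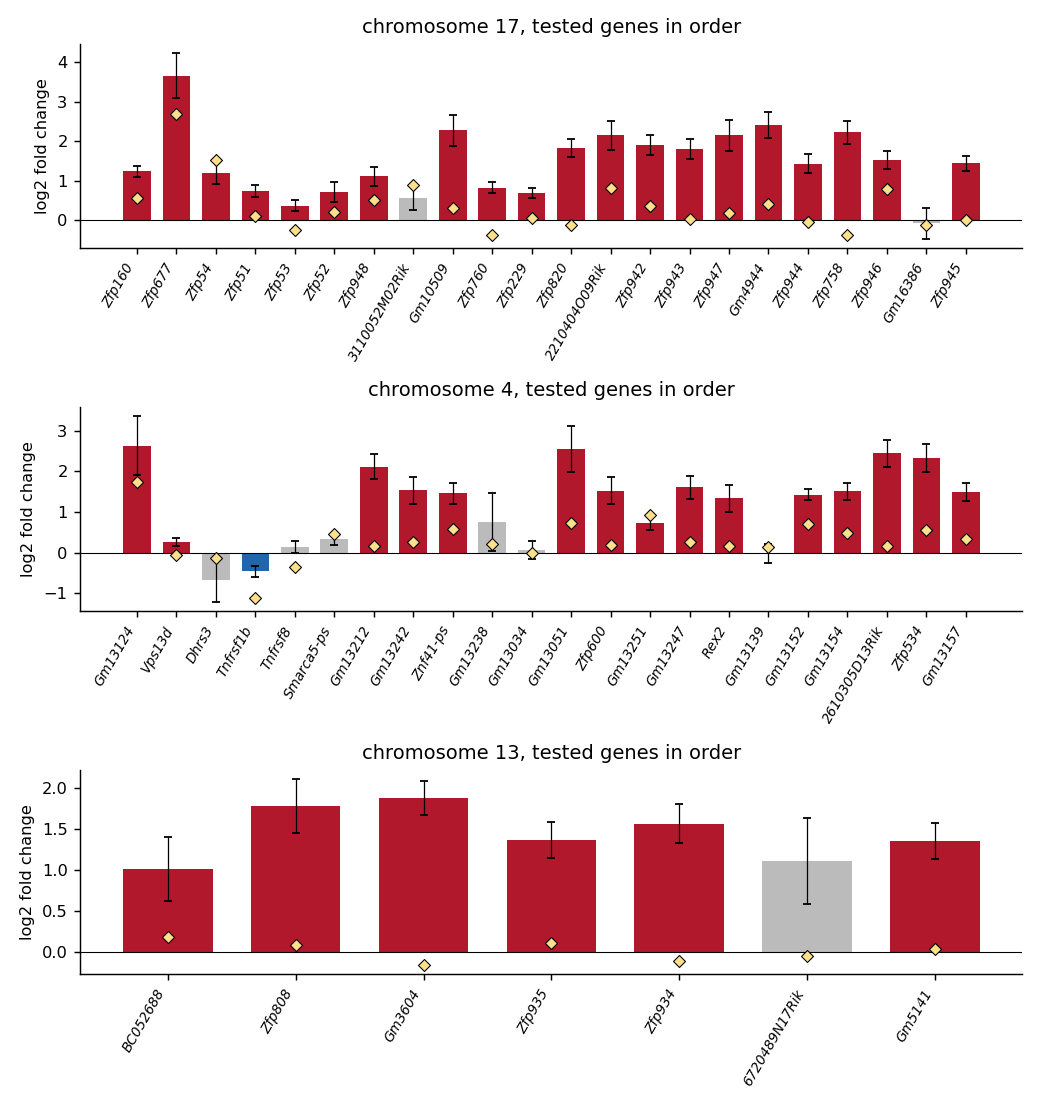
Bars give the log2 fold change, A-MYB against control, of the tested genes in order along 3 stretches, with lines of 1 SE, in red where the gene rose, blue where it fell and grey where it was not called. Yellow diamonds give the A-MYB effect in Dox cells, which on chromosome 17 has a median of 0.20 against 1.44 without Dox.

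Beyond the germ-cell and zinc finger genes, Cdc14a, a phosphatase of the cell cycle, went from 4.50 and 4.74 to 21.6 and 20.3 CPM (edgeR log2 fold change 2.18, SE 0.12, adjusted p = 4.90e-12). Gpnmb, a transmembrane glycoprotein of lysosomes and melanosomes, went from 2.77 and 5.17 to 14.9 and 18.2 CPM (2.07, SE 0.19, adjusted p = 1.90e-07). Fgfr2, a receptor of fibroblast growth factors, went from 0.935 and 0.971 to 3.18 and 2.44 CPM (1.55, SE 0.26, adjusted p = 6.05e-05). None of these 3 genes overlapped between the groups. Mir703, a microRNA gene counted here from mRNA libraries, went from 1.21 and 1.67 to 7.96 and 6.85 CPM (2.36, adjusted p = 5.76e-07), and 4930447C04Rik rose by 2.36. Replication-dependent and other histone genes (symbols starting with Hist) were low in these libraries, and 13 of 51 rose (25.5%, beside 19.5% of all tested genes) and 0 fell (median 0.38).

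The largest stable falls were smaller than the rises. Selenbp1, a selenium-binding protein, went from 3.46 and 3.81 to 0.840 and 1.503 CPM (edgeR log2 fold change -1.62, SE 0.35, adjusted p = 0.000710). Igfbp4, a secreted binding protein of insulin-like growth factors, went from 18.5 and 20.1 to 8.07 and 7.68 CPM (-1.29, SE 0.16, adjusted p = 1.73e-06). Lefty1, a secreted antagonist of Nodal, went from 85.3 and 85.4 to 37.4 and 42.5 CPM (-1.09, SE 0.09, adjusted p = 8.24e-09), and its neighbour Lefty2 from 428 and 435 to 334 and 335 CPM (-0.37, adjusted p = 1.32e-05). In each of these genes both A-MYB libraries lay below both controls. Falls of 1.13 to 1.30 on the log2 scale were also seen in Slc17a7, a glutamate transporter, Dkk3, a secreted Dickkopf protein, Sema7a, a semaphorin, Mef2b, 2310039H08Rik, Slc38a3, Vldlr, a lipoprotein receptor, Mdfi, Adm2 and Ccdc88b.

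**Figure D3:**
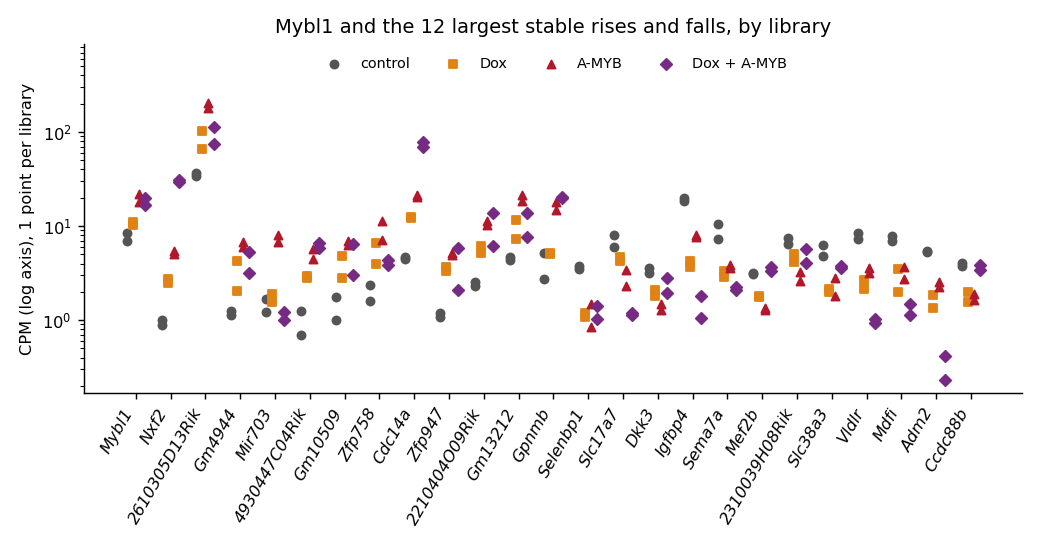
Each point is the CPM of a gene in 1 library on a log axis, with 2 libraries a group (control, Dox alone, A-MYB alone, or both), for Mybl1 and the largest stable rises and falls. The A-MYB points of 2610305D13Rik sit at 205 and 181 CPM above controls at 37.1 and 34.0, and those of Igfbp4 at 8.07 and 7.68 below controls at 18.5 and 20.1.

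Targets of p53 rose in part. Of 17 tested genes 10 rose and 1 fell (58.8% and 5.88%, beside 19.5% and 15.2% of all tested genes), with a median log2 fold change of 0.48. The fall was that of Bax, an activator of apoptosis, by 0.21, a call lost without control replicate 1 or A-MYB replicate 1. Eda2r, a receptor of the tumour necrosis factor family, went from 38.5 and 42.7 to 103 and 102 CPM (edgeR log2 fold change 1.34, SE 0.07, adjusted p = 4.90e-12). Trp53inp1, a stress protein induced by p53, went from 107 and 106 to 299 and 266 CPM (1.41, SE 0.08, adjusted p = 2.10e-11). Plk2, a kinase of the Polo family, went from 33.5 and 38.0 to 67.9 and 74.3 CPM (0.99), and Mdm2, the ubiquitin ligase of p53, from 112 and 117 to 184 and 185 CPM (0.69). The groups were well apart in all 4. Cdkn1a, the cell cycle inhibitor p21, did not pass (log2 fold change -0.08, adjusted p = 0.314), nor did Trp53 itself (-0.03, adjusted p = 0.714).

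The cell-cycle partners and targets of MYB proteins moved in both directions. Of 13 tested genes of the MYB family and the MuvB complex 6 rose and 2 fell (46.2% and 15.4%, beside 19.5% and 15.2% of all tested genes, median 0.02). Without Mybl1, the gene that was added, 5 of 12 rose and 2 fell. Those that rose include Lin54, the DNA-binding subunit of MuvB (log2 fold change 0.46), and Rbl1, a pocket protein (0.42). Rbl2 rose by 0.52 but lost its call with a library left out (edgeR adjusted p up to 0.0553). Of 24 tested G2/M targets of MYB-MuvB 7 rose and 6 fell (29.2% and 25.0%, median -0.03). Ect2, a regulator of cytokinesis (0.56), and Bub1, a kinase of the spindle checkpoint (0.52), rose, and Cdk1 (-0.31) and Aurkb (-0.33) fell. Of 18 tested genes of DNA replication licensing 2 rose and 7 fell (11.1% and 38.9%, median -0.11). Without control replicate 1 the rises dropped to 3 in the MuvB list and to 4 in the G2/M list and the falls to 2 in the licensing list; without A-MYB replicate 1 these counts were 3, 2 and 2.

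Of 25 tested genes of naive pluripotency 6 rose and 5 fell (median log2 fold change 0.00), 24.0% and 20.0% beside 19.5% and 15.2% of all tested genes: Dppa2 went from 113 and 112 to 166 and 176 CPM (0.61, edgeR adjusted p = 1.34e-07) and Fbxo15 from 431 and 401 to 495 and 514 CPM (0.28), while Dppa5a went from 1177 and 1065 to 875 and 915 CPM (-0.32). The naive rises numbered 3 without control replicate 1 or without A-MYB replicate 1. Of 13 tested genes of formative and primed pluripotency 4 rose and 2 fell (0.05). Of 20 tested genes of 2-cell-like cells 2 rose and 1 fell (0.02). Among lineage genes, 0 of 14 tested mesoderm genes rose and 5 fell (35.7%, median -0.39), and 0 of 11 trophoblast genes rose and 3 fell (27.3%, -0.08). Most of these falls were not stable, and Eomes, which is in both lists, lost its call in each fit that left out a library. In neuroectoderm 4 of 12 rose and 1 fell (0.10), and 0 rose without control replicate 2 or without A-MYB replicate 1. Of 13 endoderm genes 0 rose and 5 fell, although their median was 0.16, and those that fell include laminin and collagen genes.

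Falls were common in the lists of ribosomal, stress response, metabolic and matrix genes. Some of these lists were also low in Dox cells, as given further on. Of 24 tested cytosolic ribosomal protein genes 0 rose and 22 fell (91.7%, against 15.2% of all genes), with a median log2 fold change of -0.26, although 11 fell without control replicate 1, and over all 94 tested genes with Rpl or Rps symbols 2 rose and 67 fell (71.3%). Rpl3 went from 2129 and 2019 to 1597 and 1695 CPM (-0.33, edgeR adjusted p = 0.000105). Of 21 tested genes of the integrated stress response, which adapts amino acid supply, 0 rose and 16 fell (median -0.39). Ddit4, an inhibitor of mTOR, went from 188 and 197 to 122 and 117 CPM (-0.69, SE 0.06, adjusted p = 3.24e-08), and Phgdh, the first enzyme of serine synthesis, from 164 and 154 to 95.3 and 103 CPM (-0.68). Of 14 tested genes of endoplasmic reticulum stress 2 rose and 8 fell (-0.25), with the chaperone Hsp90b1 at 846 and 779 against 613 and 571 CPM and the co-chaperone Dnajb9 higher by 0.78.

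Of 21 tested genes of cholesterol synthesis 0 rose and 15 fell (71.4%, beside 15.2% of all tested genes, median log2 fold change -0.34). Dhcr7, the last enzyme of the pathway, went from 111 and 121 to 68.2 and 68.8 CPM (-0.76, SE 0.07, edgeR adjusted p = 4.67e-08), and Mvd, mevalonate diphosphate decarboxylase, from 106 and 106 to 60.3 and 67.5 CPM (-0.73). Of 26 tested genes of glycolysis and hypoxia 0 rose and 18 fell (-0.34). Hk1, hexokinase, went from 233 and 241 to 164 and 156 CPM (-0.57), and Ldha, lactate dehydrogenase, from 3893 and 3784 to 2987 and 3167 CPM (-0.32). Of 18 tested genes of the extracellular matrix and its cross-linking 0 rose and 14 fell (-0.47), with Col18a1, a basement membrane collagen, at 148 and 138 against 75.8 and 86.7 CPM (-0.82) and Lamb1, a laminin, at 17.3 and 16.7 against 7.74 and 8.45 CPM (-1.07). In all of these named genes the A-MYB libraries lay below the controls.

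In the remaining lists the shares stand beside 19.5% rises and 15.2% falls over all tested genes. Of 16 tested Wnt targets and antagonists 0 rose and 4 fell (25.0%, median -0.26). Of 18 genes of MAPK feedback and FGF 6 rose and 4 fell (33.3% and 22.2%, 0.04). Of 14 heat shock genes 1 rose and 4 fell (7.14% and 28.6%, -0.04). Of 8 interferon response genes 2 rose and 3 fell (25.0% and 37.5%, -0.04). Of 9 genes of fibroblast feeders 0 rose and 4 fell (44.4%, -0.22).

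**Figure D4:**
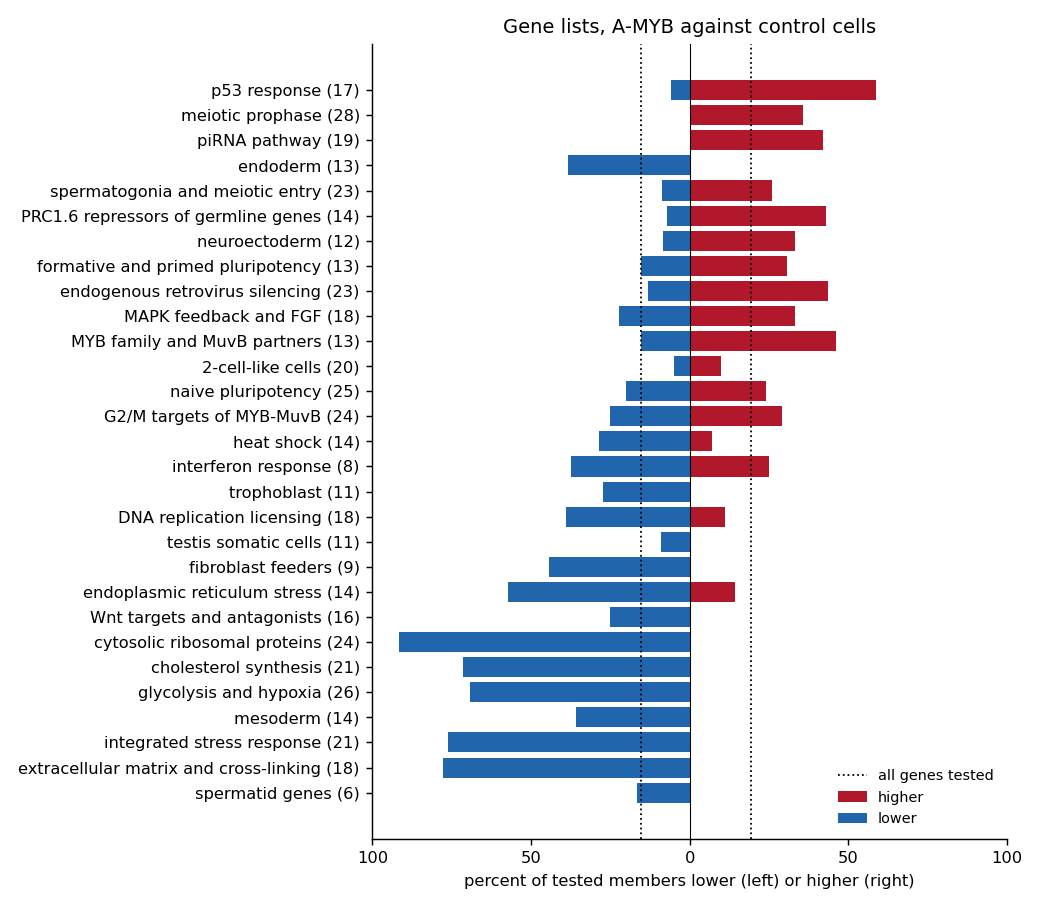
Bars give, for each gene list with its number of tested members, the percent that rose (right, red) or fell (left, blue) in A-MYB against control cells, ordered by median log2 fold change; dotted lines mark 19.5% and 15.2%, the shares over all tested genes. The p53, meiotic and piRNA lists lean to the right, and the ribosomal, cholesterol, glycolysis, stress and matrix lists to the left.

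The direction of change went with the length of the gene. Genes that rose had a median span of 37131.5 bases from start to end, those that fell 14268 and those not called 21169.5. In the fifth of genes with the shortest spans 233 rose and 628 fell, with a median log2 fold change of -0.13, and in the fifth with the longest 829 rose and 209 fell, with a median of 0.14. The part of gene span in the changes of the gene lists was not tested. By chromosome, the share of rises ran from 11.0% on chromosome 7, where 22.5% fell, to 29.8% on chromosome 3, where 10.1% fell, and the X held 27.8% rises and 8.07% falls. Among the most abundant RNAs, Eif4g2, a translation factor, rose from 1507 and 1547 to 2103 and 2068 CPM, Ddx3x, an X-linked RNA helicase, from 634 and 641 to 1049 and 962 CPM, and Eef1a1, the elongation factor, fell from 11056 and 11074 to 9586 and 9871 CPM.

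The same comparison can be made in cells given Dox at 1 µg/ml, with 2 Dox and 2 Dox + A-MYB libraries that enter neither group above. There 3935 genes rose with A-MYB (26.8%) and 4161 fell (28.4%), 55.2% of the tested genes in all, and the A-MYB effect differed between the settings in 5996 genes (40.9%, edgeR interaction). Of the 2856 genes that rose without Dox, 984 rose with Dox too (34.5% of these and 25.0% of the 3935), 744 fell and 1128 were not called. Of the 2230 that fell without Dox, 1323 fell with Dox too (59.3% of these and 31.8% of the 4161), 185 rose and 722 were not called.

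Germ-cell genes divided between the settings. With Dox 18 of 28 tested meiotic genes rose and 3 fell (median log2 fold change 0.63), against 10 and 0 without (0.46). Of 19 piRNA pathway genes 8 rose and 2 fell with Dox (0.49), against 8 and 0 without (0.34). In spermatogonia and meiotic entry 8 of 23 rose and 6 fell with Dox (-0.09), against 6 and 2 without (0.16). Over all tested genes 26.8% rose and 28.4% fell with Dox. Nxf2 rose more with Dox, by 3.53 against 2.45 on the log2 scale (difference 1.07, edgeR interaction adjusted p = 0.00350). So did Stag3 (1.45 against 0.73) and, outside the germ-cell lists, Cdc14a (2.58 against 2.18). Taf7l rose by 1.92 against 1.51, a difference that did not pass (0.40, adjusted p = 0.147). Tex15 showed no A-MYB effect past the test with Dox (0.00 against 1.32, difference -1.32, adjusted p = 8.30e-06), and neither did Dazl (-0.13 against 1.06, difference -1.18, adjusted p = 1.83e-07). Fewer zinc finger genes rose with Dox: 101 of the 345 Zfp genes rose and 67 fell there (median 0.06), against 159 and 10 without (0.32). Their signed log2 fold change was lower with Dox in 122 and higher in 27, beside 24.5% and 16.4% of all tested genes. Zfp758 differed by -2.59 (edgeR interaction adjusted p = 2.89e-05). Histone genes went the other way, with 38 of 51 rising with Dox (median 2.01). Their log2 fold change was higher than without Dox in 25, beside 16.4% of all tested genes. Genes of glycolysis and hypoxia fell in both settings, 24 of 26 with Dox (median -1.45), and Ndrg1, a gene induced by hypoxia, fell by 3.03 with Dox and by 0.69 without. Of the ribosomal list 17 of 24 fell with Dox (median -0.22).

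**Figure D5:**
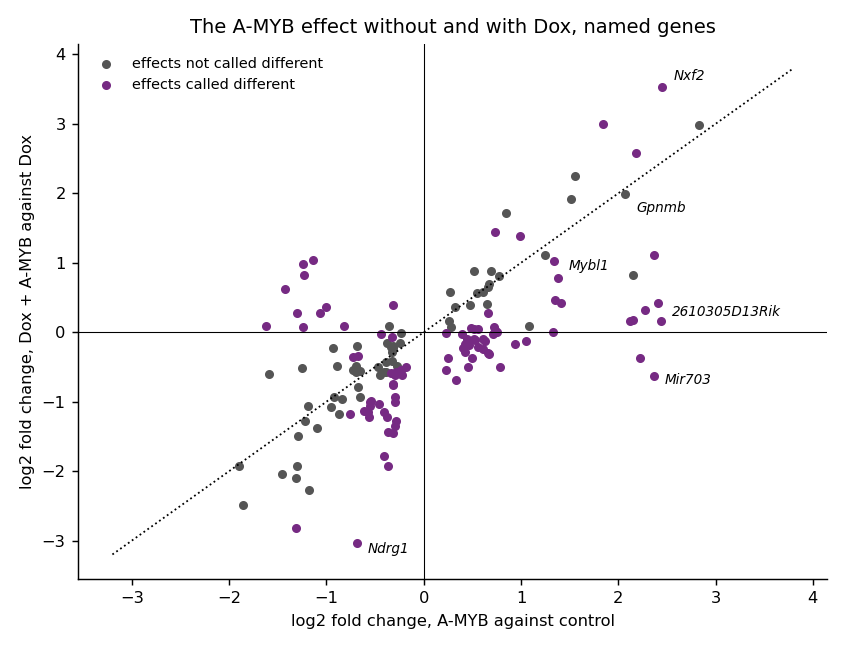
Each point is a named gene, with its log2 fold change with A-MYB in cells without Dox (horizontal) and in Dox cells (vertical), purple where the effects were called different and grey where not; the dotted line marks equal effects. Nxf2 lies at 2.45 and 3.53, above the line, and 2610305D13Rik at 2.44 and 0.16, near the horizontal axis.

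Most genes were not called different between A-MYB cells and cells given Dox alone. Between A-MYB and Dox cells, 1018 genes were higher in A-MYB cells (6.94%) and 741 lower (5.05%); without Dox replicate 2 these counts dropped to 333 and 228, without Dox replicate 1 to 664 and 342, without A-MYB replicate 1 to 433 and 326, and without A-MYB replicate 2 the lower count dropped to 491. Mybl1 stood at 11.0 and 10.2 CPM in Dox cells, below the 22.03 and 17.8 CPM of A-MYB cells (log2 difference 0.91, edgeR adjusted p = 5.32e-05). Tex15 stood at 29.8 and 24.7 CPM in Dox cells, beside 33.2 and 27.1 CPM in A-MYB cells (log2 difference 0.14, SE 0.12, adjusted p = 0.511). Taf7l at 7.03 and 8.52 CPM, Tdrd9 at 3.57 and 2.61 CPM and Rnf17 at 160 and 152 CPM in Dox cells also differed from A-MYB cells by less than the test could call, with log2 differences of -0.07, 0.03 and 0.01. Lists with many falls were also low in Dox cells. Ribosomal genes summed to 29946 and 30386 CPM in Dox, 28874 and 30771 in A-MYB and 36653 and 34601 in control cells. In this order, cholesterol genes summed to 1984 and 1953, 2271 and 2289, and 2862 and 2988 CPM. Glycolysis and hypoxia genes summed to 20422.9 and 20582.5, 21094.8 and 21734.1, and 26236.5 and 26400.3 CPM. Of these lists 0, 9 and 7 genes were higher in A-MYB than in Dox cells and 1, 0 and 0 lower. Dox and A-MYB cells are compared here with each other, since both share the same controls.

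Some genes did differ between A-MYB and Dox cells. Nxf2 was higher in A-MYB than in Dox cells (2.73 and 2.51 CPM in Dox cells, log2 difference 0.99, edgeR adjusted p = 0.000262), as were Gpnmb (5.03 and 5.12 CPM, 1.71, adjusted p = 3.04e-06), Trp53inp1 (177 and 161 CPM, 0.74, adjusted p = 4.60e-07) and Lefty1 (17.8 and 19.3 CPM, 1.10, adjusted p = 2.06e-08). Dppa3 was lower in A-MYB cells (50.3 and 47.6 CPM in Dox cells, -0.97, adjusted p = 3.28e-08), and so was Piwil2 (27.05 and 27.8 CPM, -0.61, adjusted p = 0.000127). The summed level of the stretch on chromosome 17 was 267 and 217 CPM in Dox cells, between control and A-MYB cells, and 6 of its 22 genes were higher in A-MYB than in Dox cells and 0 lower. Of the 345 Zfp genes 22 were higher in A-MYB than in Dox cells and 11 lower. These counts lay near the shares over all tested genes, 6.94% higher and 5.05% lower. Of the 17 p53 targets 5 were higher and 1 lower.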

How the data were processed

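RNA-seq was measured in 8 ES cell libraries (TruSeq stranded mRNA kit, per the labels), of which the 2 control and 2 A-MYB libraries make the comparison. Each deposited file lists raw counts by gene symbol, in whole numbers and not normalized. Their 5 special lines (reads of no gene, ambiguous or multiply aligned reads), 17.7% to 19.5% of all reads, stayed out of tests and library sizes. HISAT2 2.1.0 and HTSeq, with bcl2fastq 2.20.0, Bowtie2 2.3.3.1, MACS 1.4.2 and the build mm10, are named in the submitters' processing notes; their settings, and whether counting used strand, are not given in the sources used here, so overlapping and antisense genes are uncertain. The deposited H3K27ac peak lists give a fold enrichment as a ratio, and a score, per region, from the authors' peak caller.

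Of 23420 genes, 14664 passed edgeR's filterByExpr. Counts were scaled by TMM and fitted with edgeR 4.0.16 (glmQLFit, robust, 1 model over 8 libraries in 4 groups, 4 residual degrees of freedom; R 4.3.3 with limma 3.58.1), tested two-sided by glmQLFTest, and Benjamini-Hochberg adjusted over all tested genes. The biological coefficient of variation was 0.0631. SE is the absolute log2 fold change over the square root of F. On simulated counts for this comparison (13775 genes, 2 against 2) the fit recovered 74.6% of genes changed 1.5-fold, 97.0% of those changed 2-fold and 98.5% of those changed 4-fold, and called 11 unchanged genes. The changed genes were few and were drawn from those that averaged at least 1 CPM in control cells. DESeq2 1.42.0 was an alternative.

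The comparison, its gene lists and its named genes were chosen with earlier results of these data known. Named genes are Mybl1, the largest stable changes whose log2 CPM averages 1 or more, the largest CPM gains and losses, the largest changes shared with the Dox setting, and up to 4 members per list by p. Zinc finger and histone symbol families, the stretches, gene span, the E-box, the comparison of A-MYB with Dox cells and other genes named were chosen after their values were seen. Symbols were matched to RefSeq (GRCm38.p6) for 14608 of 14664 tested genes, and 11535 had a promoter in the table. Folds against 0 counts are lower bounds, computed with 3 counts for the whole group, and ratios to 1 to 3 counts carry an exact 95% interval; both cover counting error only.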

Additional observations from a re-analysis of the deposited data

Results flagged for a closer look

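The A-MYB effect in Dox cells differed from that without Dox in 5996 genes by edgeR's interaction test, and 31 of them are named for the size of their change without Dox. Each value below is the effect with Dox minus that without, on the log2 scale. The genes listed here from the stretches on chromosomes 4 and 17 rose without Dox and were not called with it. They are Zfp758 (-2.59), 2610305D13Rik (-2.28), Gm4944 (-1.99), Zfp947 (-1.97), Gm10509 (-1.96) and Gm13212 (-1.95). The abundant genes of translation, RNA handling and nuclear export or DNA repair that rose without Dox had lower values with it: Eif4g2 (-0.55), Eif4a2 (-0.47), Abce1 (-0.64), Ddx3x (-0.95), Srsf1 (-0.73), Hnrnpu (-0.62), Xpo1 (-1.11) and Rif1 (-0.75); the difference in Xpo1 (edgeR adjusted p = 0.0304) stands beside a rise without Dox that was lost with a library left out. Glycolytic genes, an elongation factor, a chaperone and a tubulin, which fell without Dox, fell further with it: Aldoa (-1.07), Ldha (-1.14), Pkm (-0.71), Eef1a1 (-0.31), Hsp90ab1 (-0.32) and Tubb5 (-0.84). Another 6 genes with large falls without Dox were not called lower with it: Mef2b (2.22), Ccdc88b (2.18), Slc38a3 (2.06), Selenbp1 (1.72), Dkk3 (1.57) and 2310039H08Rik (1.33). In each of them the difference exceeds the fall without Dox, so the log2 fold change with Dox was positive. Lower values with Dox were also found for Mir703 (-3.00), 4930447C04Rik (-1.25) and Mybl1 (-0.59), and higher ones for Nxf2 (1.07) and Cdc14a (0.40).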

How the results depend on the processing

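Leaving out 1 of the 4 libraries left 1718 to 2285 genes that rose and 1482 to 2134 that fell in A-MYB against control cells, and 220 to 307 that rose by at least 2-fold. In the stretch on chromosome 4 it left 7 to 12 rises, and on chromosome 13 it left 4. Between A-MYB and Dox cells, leaving out a library gave 333 to 1436 higher and 228 to 1024 lower genes. Scaling by total counts gave 2367 genes that fell with A-MYB in Dox cells (against 4161). The signed A-MYB log2 fold change was then higher with Dox in 3746 genes and lower in 2291 (against 2410 and 3586). A lower value includes genes that fell further with Dox. DESeq2 size factors gave 2653 rises and 2478 falls without Dox, total counts 3063 and 1927, and the DESeq2 test 2456 and 2228; no named gene changed sign. Of 152 named genes called, the scaling, filter and test alternatives ended at most 4 calls and leaving out a library 12 to 21. Replicate numbers did not pair the libraries (correlation of deviations -0.0049 between control and A-MYB), and with replicate number as a block 2943 rose and 2332 fell, and Mybl1 stood at 1.38. Calls were fewer among genes of low level: in the fifth with the lowest mean CPM 166 rose and 54 fell. On simulated counts, 74.6% of genes changed 1.5-fold were called, and smaller changes were not simulated.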

Other observations

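A few genes were barely detected and were called higher in both A-MYB settings. Xist, the RNA of X inactivation, had 0 and 1 counts in the control libraries and 7 and 11 in the A-MYB libraries, a ratio of 17.2 (exact 95% counting interval 2.71 to 715). Hoxb1, a homeobox gene, had 0 and 1 against 5 and 14 counts (18.1, interval 2.88 to 752). Tshz2 was at least 3.81-fold higher (0 and 0 against 6 and 6 counts), and Esr2, an oestrogen receptor, at least 2.22-fold (0 and 0 against 4 and 3). Each of these 4 calls was lost when a library was left out.

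The H3K27ac regions of pachytene spermatocytes, 29042 and 24130 in the wild-type lists and 22397 and 21269 in the lists of A-myb mutants, lay mostly away from the start sites of these genes. The sources used here do not say which library was treatment and which control in each peak call, so what these regions mark is uncertain. A region of both wild-type lists lay within 1 kb of the start in 0.596% of 11066 tested autosomal genes, in 0.702% of those that rose in A-MYB ES cells and in 0.114% of those that fell. Genes with a start near a region of both wild-type lists and of neither mutant list numbered 22, of which 7 rose (Adss, Rspry1, Inpp5d, Pdcl, Gm14325, Zfp931 and Kbtbd7) and 0 fell, beside 19.3% rises and 15.8% falls over the 11066 genes. Within 5 kb the numbers were 46 genes, 12 rises and 1 fall. Of the 7 rises within 1 kb, only those of Inpp5d, Gm14325 and Kbtbd7 were stable. Such a region lay within 1 kb of the start in 0 of the 237 autosomal genes that rose by at least 2-fold.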
